A study of Homo sapiens with 12 samples.

Results

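SPP1 encodes osteopontin, a secreted phosphoprotein, and the 9 genes described here are SPP1 and 8 genes for the proteins that bind it on the cell surface. They are the rows of the deposited table whose symbol is SPP1, CD44, ITGAV, ITGB1, ITGB3, ITGB5, ITGA4, ITGA5 or ITGA9, which is 9 of 20307 genes. The RNA of 2 human cell lines was sequenced in 12 libraries, 3 for each of 4 groups. SPP1-positive macrophages and the tumour membrane protein DCBLD2 stand in the title, and each cell line was compared between a DCBLD2 and a control arm. H1299 comes from a lung carcinoma of the non-small-cell kind; its groups carry the genotype labels DCBLD2 overexpression and WT, and no empty construct is named for WT. THP-1 comes from a monocytic leukaemia and turns macrophage-like under the phorbol ester PMA. Both THP-1 groups are WT, were given PMA for 24 h, and then spent 48 h with DCBLD2 or control H1299. The design text calls this co-culture and the sample labels call it supernatant, and neither says whether the H1299 line was 1 clone or whether replicates were separate cultures. P-values therefore measure only the spread between these libraries, which may be technical.

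Osteopontin is made by macrophages, osteoclasts and many carcinomas, and it works both as a matrix protein and as a soluble cytokine. Integrins are pairs of an α and a β chain. The chains αv (ITGAV) with β3 (ITGB3), β5 (ITGB5) or β1 (ITGB1), and α5 (ITGA5) with β1, recognise an Arg-Gly-Asp (RGD) motif in osteopontin, whereas α4 (ITGA4) and α9 (ITGA9) with β1 recognise the adjoining residues that thrombin cleavage uncovers. CD44 is the main receptor of the matrix sugar hyaluronan and a reported osteopontin receptor. Its transcripts are spliced into many forms.

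The stretch of SPP1 that codes for both integrin motifs is printed here because the integrins among these genes recognise it. It lies in exon 6 of transcript SPP1-203 (GENCODE 29, GRCh38, chr4:87981703-87981792, plus strand), and the capitals, at 87981733 to 87981762, mark the 3 codons of the RGD motif and the 7 codons after them.
SPP1 integrin-binding stretch: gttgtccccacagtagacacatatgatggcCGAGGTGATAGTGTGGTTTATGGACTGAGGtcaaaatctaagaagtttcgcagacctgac
The motif starts at residue 159 of the 314 that this transcript encodes, and it is the 1 RGD motif of the protein. The second sequence is the stretch upstream of the gene, shown because SPP1 is the member whose level differed most between the cell lines (RefSeq, GRCh38.p14, chr4:87975464-87975649, plus strand). Its capitals mark AACCACA, the core motif bound by RUNX factors.
SPP1 upstream stretch: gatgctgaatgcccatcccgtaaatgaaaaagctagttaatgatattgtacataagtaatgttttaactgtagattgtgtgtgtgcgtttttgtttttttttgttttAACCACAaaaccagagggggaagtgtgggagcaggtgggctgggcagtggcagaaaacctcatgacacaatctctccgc
Among 35116 RefSeq windows of the 250 bases before a gene's start, searched on both strands, 3.65% hold AACCACA. In the window of SPP1, of which the printed stretch is the part before the GENCODE start, 5 other motifs had no match. They were the AP-1 motif TGANTCA, which 6.57% of windows hold, and the E-box, CACGTG, held by 6.34%. The ETS and PU.1 motif GAGGAAG is in 11.2% of windows and the SP1 motif GGGCGG in 42.6%. The TATA box was searched as TATAAA, which occurs in 10.7%. A match is a run of letters and not a measured binding site.

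Levels are given in TPM, the length-scaled relative unit of the deposited table, and fold changes come from the deposited estimated read counts. Depth was 14578887 to 20167477 estimated reads in H1299 labelled DCBLD2, 19572131 to 23388187 in H1299 labelled control, 18606739 to 26787853 in THP-1 labelled DCBLD2 and 20046869 to 24111179 in THP-1 labelled control. DCBLD2 itself went against its H1299 labels, with 105, 98.2 and 92.5 TPM in the libraries labelled DCBLD2 and 247, 148 and 196 TPM in those labelled control (log2 fold change -1.27 ± 0.17 (SE), adjusted p = 0.00284). Groups are for that reason called labelled DCBLD2 and labelled control, and every direction is labelled DCBLD2 against labelled control. The cell types were checked against marker lists. The leukocyte genes PTPRC and AIF1 were at 0 TPM in every H1299 library. In THP-1, 11 of 12 myeloid markers were at 1 TPM or more. So were 7 of 12 carcinoma markers in THP-1 labelled DCBLD2 and 5 in THP-1 labelled control, with LMNA and CAV1 among them. The epithelial genes EPCAM and KRT19 were at 0 in THP-1. KRT19 had only 0.042 and 0.177 TPM in H1299 labelled DCBLD2 and labelled control, and EPCAM was also scarce there. These genes therefore cannot show whether THP-1 libraries held H1299 RNA. CDH1 was at 0 TPM and EPCAM at 0.653 and 0.444 TPM in H1299 labelled DCBLD2 and labelled control, while 8 of the 12 carcinoma markers, KRT8 and KRT18 among them, were at 1 TPM or more in both H1299 groups.

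SPP1 was among the most abundant transcripts of the THP-1 cells and a scarce one in H1299. In THP-1 it had 2345, 2399 and 2399 TPM in labelled DCBLD2 and 2225, 2202 and 2222 TPM in labelled control. By mean TPM this placed it 50th and 41st of 20307 genes. In H1299 it had 8.63, 8.94 and 7.54 TPM in labelled DCBLD2, from 115 to 153 reads a library, and 4.34, 3.62 and 5.05 TPM in labelled control, from 73 to 100 reads. Its rank there was 8490 and 9844. In neither cell line did the ranges of the groups overlap, as was the case for 37.5% of genes tested in H1299 and 64.9% in THP-1.

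**Figure D1:**
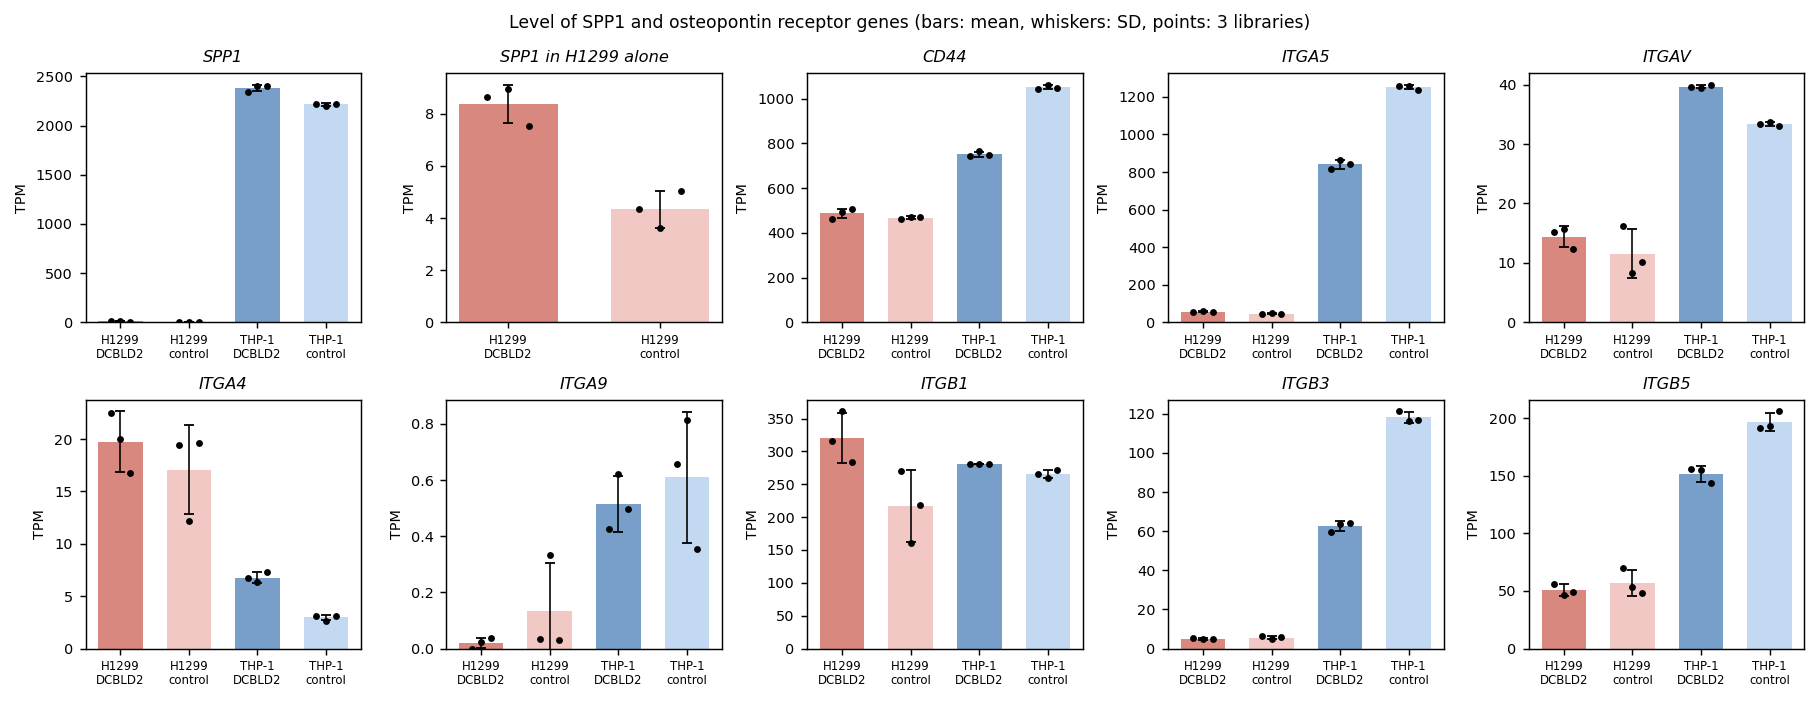
Level in TPM of SPP1 and the 8 receptor genes in H1299 and THP-1, labelled DCBLD2 left of labelled control in each line, with SPP1 in H1299 drawn a second time on its own scale. Bars are means, whiskers SD (cut at 0 for ITGA9) and points the 3 libraries of a group; SPP1 stands between 2202 and 2399 TPM in the THP-1 libraries and between 3.62 and 8.94 TPM in the H1299 libraries.

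In H1299, 2 of the 8 members tested were called higher (SPP1 and ITGB1) and 1 lower (CD44), where called means an adjusted p under 0.05 over all genes tested. The background is large. Of 12773 genes tested in this comparison, 20.9% were called, 10.3% higher and 10.6% lower. The median log2 fold change of the 8 members was 0.25, beside 0.0047 over all genes. ITGA9, with 0, 2 and 1 reads in labelled DCBLD2 and 3, 4 and 1 in labelled control, was too scarce to test; a count of 0 still allows up to 3 reads in that library.

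SPP1, the ligand, averaged 8.37 ± 0.736 TPM in labelled DCBLD2 and 4.34 ± 0.713 TPM in labelled control (SD, n = 3 each). The change was 1.98-fold (log2 fold change 0.99 ± 0.16 (SE), adjusted p = 0.00513, edgeR). It kept this direction and its call in every alternative run, with adjusted p between 3.91e-06 and 0.0346.

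CD44 gave opposite directions by read count and by TPM. In CPM (reads scaled to library size) it had 382, 406 and 432 in labelled DCBLD2 and 502, 514 and 469.7 in labelled control, without overlap, and it was called lower (log2 fold change -0.30 ± 0.09 (SE), adjusted p = 0.0479). In TPM it had 463, 492 and 506 in labelled DCBLD2 and 459.9, 472 and 469 in labelled control, which overlap. On log2(TPM + 1) the difference was 0.06, in the other direction. The count and the TPM of a gene differ by the mean length of the transcripts to which its reads were assigned. For CD44 that length, relative to the median gene of its library, was 0.634 ± 0.00856 in labelled DCBLD2 and 0.807 ± 0.0359 in labelled control (SD, n = 3 each; two-sided exact permutation p = 0.1, the smallest that 3 against 3 can give). Of 9838 genes, 0.925% had a difference in this length at least as large. CD44 has 26 protein-coding transcripts in GENCODE 29, from 352 to 5732 bases long; which of them carried the reads was not analysed here. The CD44 call was also lost with any 1 library left out, with adjusted p between 0.0505 and 0.166, and with no filter on low counts (0.0525).

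**Figure D2:**
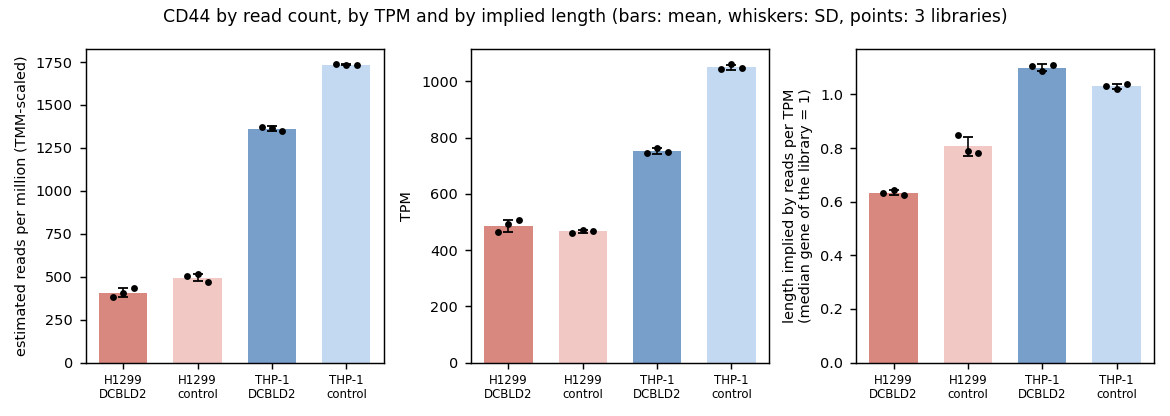
CD44 in the 12 libraries as CPM, as TPM and as the relative transcript length implied by both, labelled DCBLD2 left of labelled control in each line. In H1299 the CPM and the implied length do not overlap between the groups while the TPM do; in THP-1 all 3 panels separate the groups.

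Among the β chains, ITGB1, the partner of α4, α5, α9 and αv, was the 1 chain called. It had 316, 361 and 285 TPM in labelled DCBLD2 and 270.5, 161 and 218 TPM in labelled control, so that the lowest library of the first group stood just above the highest of the second. Separate TPM ranges were found for 37.5% of genes tested in H1299. The ITGB1 change was 1.47-fold (log2 fold change 0.56 ± 0.15 (SE), adjusted p = 0.0307, edgeR). The call was lost without labelled control replicate 3 (adjusted p = 0.0801) or without any 1 of the labelled DCBLD2 libraries (0.0510 to 0.134). ITGB3, the β chain of the vitronectin receptor, averaged 5.02 ± 0.404 TPM in labelled DCBLD2 and 5.63 ± 0.674 TPM in labelled control (SD, n = 3 each). ITGB5, the other common partner of αv, averaged 50.5 ± 5.17 and 57.2 ± 11.4 TPM in the same order. Both overlapped between the groups and neither was called (adjusted p 0.233 and 0.132, edgeR).

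None of the α chains was called in H1299. ITGA5, the α chain of the classical fibronectin receptor, came nearest, with 52.9, 59.5 and 56.85 TPM in labelled DCBLD2 and 45.3, 47.8 and 45.3 TPM in labelled control. These ranges do not overlap, as was the case for 37.5% of genes tested, and the adjusted p was 0.0577 (log2 fold change 0.29 ± 0.10 (SE)); with DESeq2 it was 0.044. ITGAV had 15.2, 15.7 and 12.3 TPM in labelled DCBLD2 and 16.2, 8.35 and 10.1 TPM in labelled control. Here labelled control replicate 1 lay above the whole labelled DCBLD2 group, and without that library the log2 fold change was 0.59 (adjusted p = 0.0154) in place of 0.31 (adjusted p = 0.279). ITGA4, the chain of the lymphocyte and monocyte integrin VLA-4, averaged 19.8 ± 2.88 TPM in labelled DCBLD2 and 17.1 ± 4.24 TPM in labelled control (adjusted p = 0.408).

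In THP-1, 8 of the 9 members were called, 4 higher (SPP1, ITGAV, ITGA4 and ITGB1) and 4 lower (CD44, ITGA5, ITGB3 and ITGB5). Of 13120 genes tested, 68.1% were called, 34.5% higher and 33.6% lower, so a call alone sets no gene apart here. The spread between THP-1 replicates was small, with a common coefficient of variation of 1.96%, against 13.3% in H1299. Sizes are therefore given beside each call. The median log2 fold change of the 9 members was -0.05, beside 0.0005 over all genes. In bulk RNA, fewer cells of a type and less RNA per cell cannot be told apart.

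The SPP1 change in THP-1 was small: 2381 ± 31.2 TPM in labelled DCBLD2 and 2216 ± 12.4 TPM in labelled control (SD, n = 3 each), 1.11-fold by reads (log2 fold change 0.15 ± 0.01 (SE), adjusted p = 2.08e-10, edgeR). Its call rests on the narrow spread of these libraries. With the common spread of H1299 put in its place, the adjusted p was 0.490, and of the 8 calls those of ITGA4, ITGA5 and ITGB3 were kept. Of all genes tested, 34.5% were called in that setting, so these calls too set no gene apart. The summed level of the 12 myeloid markers was 7177 to 7217 TPM in labelled DCBLD2 and 5212 to 5279 TPM in labelled control. The means of 9 of them, TYROBP and FCER1G among these, were higher in labelled DCBLD2, and those of 3 were lower: LAPTM5 (1564 and 1804 TPM), ITGAM (69.7 and 132 TPM) and CD68 (289 and 318 TPM), labelled DCBLD2 before labelled control. The share of reads from mitochondrially encoded genes was 2.46 to 2.58% and 3.48 to 3.51% in the same order, and that of cytosolic ribosomal protein genes 5.47 to 5.77% and 3.95 to 3.98%. The part of any of these in the member values was not tested.

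CD44 fell in THP-1 by both measures. It had 744, 764 and 748 TPM in labelled DCBLD2 and 1043, 1061 and 1049 TPM in labelled control, and a CPM of 1371, 1367 and 1349 in labelled DCBLD2 against 1736, 1734 and 1730.0 in labelled control. The log2 fold change by reads was -0.35 ± 0.01 (SE), with an adjusted p of 2.78e-17. The TPM ranges of the groups were separate, as they were for 64.9% of genes tested. The implied length was 1.10 ± 0.0126 in labelled DCBLD2 and 1.03 ± 0.00924 in labelled control (SD, n = 3 each), a difference that 14.1% of genes matched or passed.

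ITGB3 and ITGB5, the usual partners of αv, fell, while ITGB1 rose slightly. ITGB3 showed the largest fall among the members, with 59.5, 63.9 and 64.0 TPM in labelled DCBLD2 and 121, 117 and 117 TPM in labelled control (log2 fold change -0.86 ± 0.02 (SE), adjusted p = 2.48e-21, edgeR). ITGB5 had 156, 155 and 144 TPM in labelled DCBLD2 and 192, 193 and 206 TPM in labelled control (-0.23 ± 0.02 (SE), adjusted p = 5.65e-11). ITGB1 was nearly level, with 281 ± 0.179 TPM in labelled DCBLD2 and 266 ± 5.77 TPM in labelled control (SD, n = 3 each), yet was called (0.12 ± 0.02 (SE), adjusted p = 5.11e-06); with all 12 libraries in 1 fit the call was lost (adjusted p = 0.449). For all 3 chains the ranges were separate, as they were for 64.9% of genes tested. The ITGB3 locus also holds a protein-coding model without a symbol on the same strand, listed at 0.781 TPM or less, with which reads may be shared.

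Among the α chains ITGA4 and ITGAV rose and ITGA5, the most abundant, fell. ITGA4 showed the largest rise among the members, with 6.74, 6.32 and 7.29 TPM in labelled DCBLD2 and 3.11, 2.68 and 3.14 TPM in labelled control, a 2.72-fold change by reads (log2 fold change 1.44 ± 0.07 (SE), adjusted p = 4.07e-15, edgeR). Its log2 change was smaller on log2(TPM + 1), at 0.97, and with the implied length as an offset, at 1.225. The implied length of ITGA4 averaged 2.14 in labelled DCBLD2 and 1.85 in labelled control, with overlap. Of 9838 genes, 3.54% had a length difference at least as large. ITGAV, the α chain shared by the vitronectin-type receptors, had 39.6, 39.4 and 39.9 TPM in labelled DCBLD2 and 33.3, 33.7 and 33.1 TPM in labelled control (0.34 ± 0.03 (SE), adjusted p = 9.46e-12; 0.0760 with all 12 libraries in 1 fit). ITGA5 had 815, 865 and 843 TPM in labelled DCBLD2 and 1259, 1258 and 1239 TPM in labelled control (-0.54 ± 0.01 (SE), adjusted p = 3.73e-21). None of these 3 overlapped between the groups, as was the case for 64.9% of genes tested. ITGA9 stayed near the limit of detection, with 35, 26 and 34 reads in labelled DCBLD2 and 36, 30 and 23 in labelled control, and was not called (adjusted p = 0.881).

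**Figure D3:**
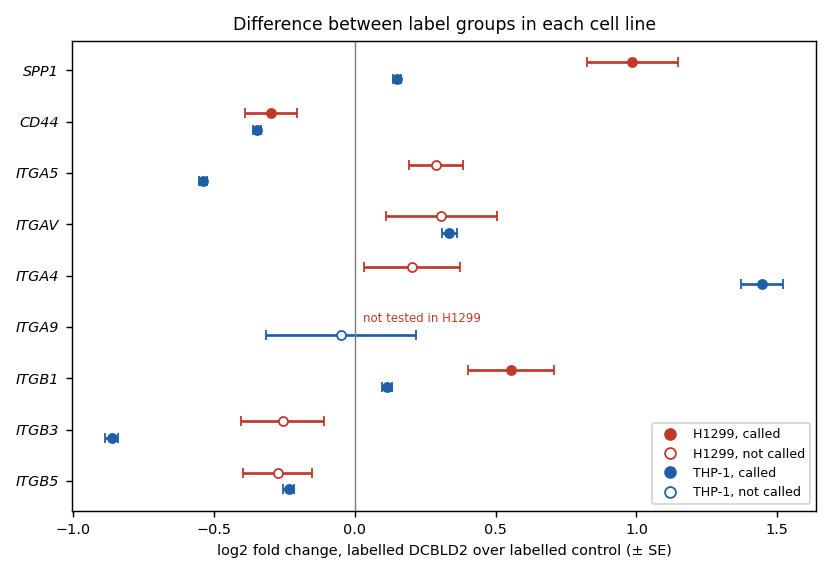
Log2 fold change (edgeR, labelled DCBLD2 over labelled control) of each member in H1299 and in THP-1, with the standard error as whiskers. ITGA4 stands highest in THP-1 at 1.44 and ITGB3 lowest at -0.86, while SPP1 stands highest in H1299 at 0.99.

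The THP-1 change was tested against the H1299 change in 1 fit of all 12 libraries, as the THP-1 change minus the H1299 change. The H1299 groups differed in their own genotype label, and the WT THP-1 groups in the H1299 line they were exposed to. Cell line and kind of comparison therefore cannot be told apart in this test. Of 14244 genes, 38.7% were called in this test, 19.3% higher and 19.5% lower; of the 9 members 5 were called. SPP1 rose less in THP-1 (-0.84 ± 0.10 (SE), adjusted p = 2.88e-05), and so did ITGB1 (-0.46 ± 0.16 (SE), adjusted p = 0.0375, but 0.0632 with limma on log2(TPM + 1)); the ITGB1 call was lost in 10 of the 12 fits that left out 1 library. ITGB3 (-0.62 ± 0.12 (SE), adjusted p = 0.00142) and ITGA5 (-0.84 ± 0.09 (SE), adjusted p = 1.12e-05) were also lower in this measure, and ITGA4 was higher (1.23 ± 0.20 (SE), adjusted p = 0.000367; 0.75 on log2(TPM + 1)). ITGA5 had opposite signs in the cell lines, though its H1299 change was not called. CD44 was not called by reads (-0.06, adjusted p = 0.575); on log2(TPM + 1) its difference was -0.54 (adjusted p = 3.91e-05, limma). ITGAV, ITGB5 and ITGA9 were not called either (adjusted p of 1.0, 0.918 and 0.401).

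Because pairs of chains make a receptor, the make-up of the α and β chain transcripts was computed per library from TPM, which is scaled by length. ITGB1 made up 85.1 ± 2.15% of the TPM of ITGB1, ITGB3 and ITGB5 in H1299 labelled DCBLD2 and 77.2 ± 3.38% in H1299 labelled control. In THP-1 its share was 56.8 ± 0.667% in labelled DCBLD2 and 45.7 ± 0.155% in labelled control (SD, n = 3 in each group). The share of ITGB3 was 1.34 ± 0.155% and 2.05 ± 0.227% in the H1299 groups and 12.6 ± 0.575% and 20.3 ± 0.661% in the THP-1 groups, labelled DCBLD2 before labelled control. That of ITGB5 was 13.5 and 20.8% in the H1299 groups and 30.6 and 33.9% in the THP-1 groups, in the same order. So the ITGB1 share was higher and the ITGB3 and ITGB5 shares lower in labelled DCBLD2 of both cell lines, with separate ranges. Each exact two-sided permutation p was 0.1, the smallest possible, and 0.15 when adjusted over the 30 such tests. Shares of 1 sum are not independent, and in H1299 neither ITGB3 nor ITGB5 was itself called (adjusted p 0.233 and 0.132, edgeR).

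ITGA5 made up 94.7 ± 0.185% of the TPM of the 4 α chains in THP-1 labelled DCBLD2 and 97.1 ± 0.0038% in THP-1 labelled control (SD, n = 3 each). ITGAV made up 4.47 ± 0.141% and 2.59 ± 0.0148% in the same order. In H1299 the ITGA5 share was 62.3 ± 3.85% in labelled DCBLD2 and 62.0 ± 6.94% in labelled control, with ITGA4 at 21.8 ± 2.76% and 22.7 ± 4.37%, and these overlapped. ITGA5 transcripts outnumbered those of its partner ITGB1 in THP-1, at a ratio of 2.99 ± 0.0898 in labelled DCBLD2 and 4.71 ± 0.139 in labelled control, and were fewer than them in H1299, at 0.177 ± 0.0194 and 0.224 ± 0.066. The ratio of SPP1 to CD44 was 3.17 ± 0.0364 in THP-1 labelled DCBLD2 and 2.11 ± 0.0297 in THP-1 labelled control, with separate ranges (exact p = 0.1, 0.15 adjusted). These are ratios of transcripts; no protein or assembled receptor was measured.

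**Figure D4:**
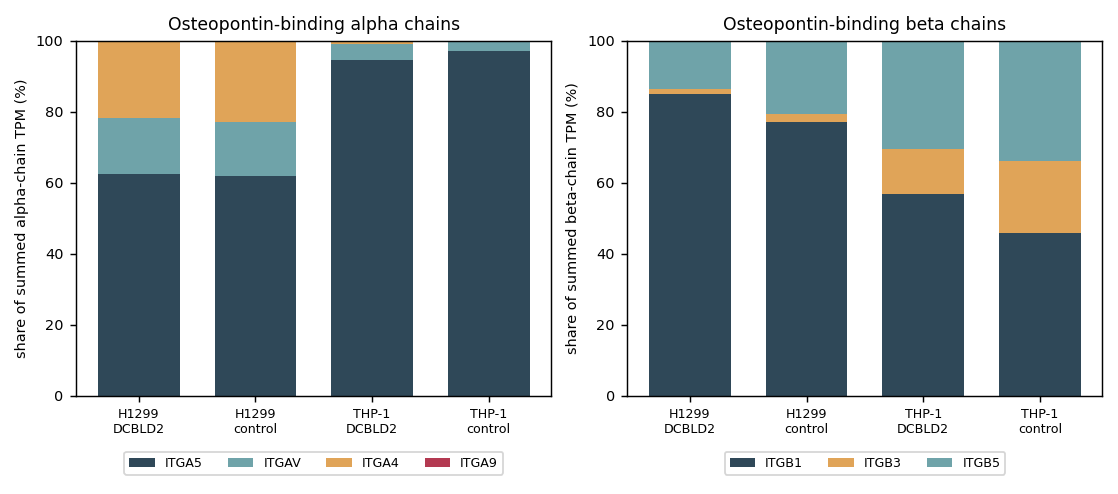
Share of the summed TPM of the α chains and of the β chains taken by each chain (percent, mean of 3 libraries), labelled DCBLD2 left of labelled control in each line. ITGA5 takes 94.7 and 97.1% of α-chain TPM in the THP-1 groups and about 62% in both H1299 groups; ITGB1 takes a larger part of β-chain TPM in labelled DCBLD2 of both lines.

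Set against H1299, the THP-1 cells carried more of nearly every member. Cell line, PMA and exposure to H1299 cannot be told apart in this comparison. Between the labelled control groups all 9 members were called, 8 higher in THP-1, where 85.9% of 14244 genes were called, 42.3% higher and 43.6% lower. Between the labelled DCBLD2 groups 8 were called, 7 higher in THP-1, beside 85.8% of genes, 41.9% higher and 43.9% lower. SPP1 was 354-fold higher in THP-1 labelled DCBLD2 than in H1299 labelled DCBLD2, and 636-fold higher in THP-1 labelled control than in H1299 labelled control (log2 fold changes 8.47 ± 0.08 and 9.31 ± 0.08, SE). ITGA5 was 18.5-fold and 33.1-fold higher, and ITGB3 had log2 fold changes of 3.88 and 4.49. For ITGA9, which had 0 to 4 reads in each H1299 library and 23 to 36 in each THP-1 library, no fold is given. CD44, ITGAV and ITGB5 lay between 1.74 and 1.92 on the log2 scale in both comparisons, although on log2(TPM + 1) CD44 was at 0.63 and 1.17. ITGA4 alone ran the other way, 2.17-fold lower in the labelled DCBLD2 groups and 5.07-fold lower in the labelled control groups. ITGB1 differed least, with log2 fold changes of 0.12 (adjusted p = 0.323) and 0.58 (adjusted p = 0.000255, edgeR); on log2(TPM + 1) these were -0.18, the other direction, and 0.33. On the TPM scale the median of all genes moved to -0.29 and -0.24, so TPM values across the lines are to be read against that shift.

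By mean TPM, the order of the 4 groups was not the same for all members. SPP1 and ITGAV ran from THP-1 labelled DCBLD2 through THP-1 labelled control and H1299 labelled DCBLD2 to H1299 labelled control. CD44 and ITGA5 had the THP-1 groups the other way round, and ITGB3 and ITGB5 ran from THP-1 labelled control through THP-1 labelled DCBLD2 and H1299 labelled control to H1299 labelled DCBLD2. ITGB1 was highest in H1299 labelled DCBLD2 and lowest in H1299 labelled control, and ITGA4 was higher in both H1299 groups than in either THP-1 group. Neighbours in these orders had overlapping libraries in H1299 for CD44, ITGAV, ITGB3, ITGB5, ITGA4 and ITGA9, in THP-1 for ITGA9, and between THP-1 labelled control and H1299 labelled control for ITGB1.

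The genes whose profile lay nearest to that of SPP1 over the 12 libraries were CCL5, a chemokine, CSF1R, the receptor of macrophage colony-stimulating factor, AREG, a ligand of the epidermal growth factor receptor, CD53, a leukocyte tetraspanin, and LPL, lipoprotein lipase. Likeness was the distance between centred log2(TPM + 1) values, computed for 11082 genes, and it was 0.983 for CCL5 and 1.09 for LPL. All these points share the gap between the cell lines; its part in the distance was not tested. Within THP-1 they differed in direction, since CSF1R averaged 422 ± 10.3 TPM in labelled DCBLD2 and 318 ± 3.10 TPM in labelled control while CCL5 averaged 331 ± 8.48 and 375 ± 3.85 TPM (SD, n = 3 each). Nearest to CD44 were ZNF865 (distance 0.209), SLC35E1 (0.276) and CALR, the chaperone calreticulin (0.285).

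Of 14 other integrin α chains, 9 were tested in H1299, with 1 higher, 0 lower and a median log2 fold change of 0.04; that gene was ITGA6, a laminin-receptor chain (110.3 ± 13.4 TPM in labelled DCBLD2 and 78.5 ± 16.2 TPM in labelled control, adjusted p = 0.0343, edgeR). Called α chains made up 11.1% of those tested in H1299 and 90.9% in THP-1, beside 20.9% and 68.1% of all genes tested. In THP-1, 11 were tested, with 2 higher, 8 lower and a median of -0.77, beside 0.0005 over all genes. The lower ones included ITGAX, a myeloid chain that pairs with β2 (189 ± 4.35 TPM in labelled DCBLD2 and 329.65 ± 4.13 in labelled control, log2 fold change -0.80 ± 0.02), and ITGA3 (113 ± 1.98 and 203 ± 1.44 TPM, -0.78 ± 0.02). The collagen-receptor chain ITGA1 was higher, at 8.53 ± 0.455 and 5.58 ± 0.135 TPM (0.66 ± 0.05). Of 5 other β chains, 3 were tested in H1299 (1 higher, 1 lower) and 4 in THP-1 (1 higher, 2 lower), where ITGB7 was lower (-0.38 ± 0.02) and ITGB8 higher (0.44 ± 0.07). Called β chains made up 66.7% of those tested in H1299 and 75.0% in THP-1.

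The 4 bone and tooth matrix glycoproteins of the same family as osteopontin (IBSP, DMP1, DSPP and MEPE) were all under the count minimum in H1299. In THP-1, DMP1 and IBSP were tested and both were called higher, where 34.5% of all genes tested were. DMP1 averaged 5.20 ± 0.230 TPM in labelled DCBLD2 and 1.70 ± 0.164 TPM in labelled control (log2 fold change 1.63 ± 0.13 (SE)), and IBSP 1.89 ± 0.546 and 0.873 ± 0.361 TPM (1.11 ± 0.32 (SE), adjusted p = 0.00307). IBSP lies at a level where its libraries vary by a large part of their mean.

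Of 12 genes for enzymes that cleave or modify osteopontin, 3 were tested in H1299 with 0 higher and 2 lower, and 9 in THP-1 with 2 higher and 6 lower. Calls were 66.7% of those tested in H1299 and 88.9% in THP-1, beside 20.9% and 68.1% of all genes. TGM2, the transglutaminase that cross-links osteopontin, was lower in both cell lines: 13.5 ± 3.74 TPM in labelled DCBLD2 and 39.2 ± 6.27 TPM in labelled control in H1299 (log2 fold change -1.70 ± 0.17), and 111 ± 7.16 and 156 ± 5.69 TPM in THP-1 (-0.47 ± 0.02). PLAU, urokinase, was lower in H1299 (-0.33 ± 0.09) and higher in THP-1 (0.67 ± 0.02). MMP3, a stromelysin that cuts osteopontin, was lower in THP-1, at 174 ± 4.77 and 414 ± 3.78 TPM (-1.23 ± 0.02).

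Of 21 transcription factors reported at SPP1, 19 were tested in H1299 (1 higher, 3 lower) and 21 in THP-1 (8 higher, 9 lower). Calls were 21.1% of those tested in H1299 and 81.0% in THP-1, beside 20.9% and 68.1% of all genes. In H1299, MYC was higher (233 ± 8.31 TPM in labelled DCBLD2 and 159.8 ± 5.21 TPM in labelled control, 0.54 ± 0.09) and RXRA lower (-1.55 ± 0.21). RUNX1, whose family binds the motif capitalised upstream of SPP1, was called lower by reads in H1299 (-0.58 ± 0.11, adjusted p = 0.00919), yet averaged 25.6 ± 2.16 TPM in labelled DCBLD2 and 24.4 ± 1.90 TPM in labelled control, the other direction. In THP-1, SPI1, which encodes the myeloid factor PU.1, was higher (528 ± 10.3 and 381 ± 2.06 TPM, 0.51 ± 0.02) and NR1H3, the oxysterol receptor LXRα, lower (118 ± 4.32 and 268 ± 5.99 TPM, -1.18 ± 0.03).

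The 29 genes of the integrin adhesion machinery, which link integrins to actin and kinases, had 26 tested in H1299 (1 higher, 8 lower) and 29 in THP-1 (11 higher, 12 lower). Calls were 34.6% of those tested in H1299 and 79.3% in THP-1, beside 20.9% and 68.1% of all genes. In H1299 the kinase gene PTK2 (FAK) was the higher one (0.49 ± 0.11), and TNS3 (-1.05 ± 0.13) and BCAR1 (-0.79 ± 0.11) were among the lower. The THP-1 examples were PARVA (0.76 ± 0.05) and APBB1IP (0.53 ± 0.03), both higher, and PTK2B, which encodes the kinase PYK2 (-0.71 ± 0.02), and CRKL (-0.57 ± 0.02), both lower. Of 19 genes for CD44 partners and hyaluronan, 12 were tested in H1299 (4 higher, 3 lower) and 14 in THP-1 (6 higher, 5 lower), or 58.3% and 78.6% of those tested. VCAN, the hyaluronan-binding proteoglycan versican, was higher in both: 4.30 ± 0.935 TPM in labelled DCBLD2 and 2.25 ± 0.667 TPM in labelled control in H1299 (0.94 ± 0.21), and 2.39 ± 0.291 and 0.231 ± 0.0877 TPM in THP-1 (3.58 ± 0.15). MMP14, a membrane protease that sheds CD44, was lower in both (-0.52 ± 0.11 in H1299 and -0.20 ± 0.01 in THP-1).

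Of 20 other ligands of the same integrins, 14 were tested in H1299 (2 higher, 4 lower) and 15 in THP-1 (5 higher, 3 lower). Calls were 42.9% of those tested in H1299 and 53.3% in THP-1, beside 20.9% and 68.1% of all genes. The matricellular genes CCN1 and CCN2 were the higher ones in H1299; CCN1 averaged 1666 ± 51.3 TPM in labelled DCBLD2 and 753 ± 52.1 TPM in labelled control (log2 fold change 1.14 ± 0.09). TNC, tenascin-C, was lower there (-2.12 ± 0.19). In THP-1, FN1, the fibronectin gene and main ligand of α5β1, was higher (1409 ± 36.4 and 1211 ± 6.35 TPM, 0.25 ± 0.01) and MFGE8, an RGD protein that bridges phagocytes to dying cells, lower (44.7 ± 1.10 and 92.2 ± 1.33 TPM, -1.04 ± 0.04).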

How the data were processed

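Bulk RNA-seq of 12 libraries was analysed. Trizol RNA, enriched for mRNA, went into NEBNext Ultra RNA libraries, per the labels' protocols. The submitters' processing notes name fastp 0.18.0, Bowtie2 2.2.8, HISAT2, StringTie 1.3.1, RSEM and the hg38 build; for the annotation release and strand handling, nothing is given in the sources used here. Genes on the opposite strand overlap CD44, ITGAV, ITGB1, ITGB3, ITGB5, ITGA5, ITGA9 and DCBLD2, and reads of such partners cannot be told apart without strand. For DCBLD2 the partner is the protein-coding gene ST3GAL6, which also has deposited values. The authors deposited TPM and estimated counts per gene in 1 table, without further normalization of the counts; 12.0 to 13.4% of the counts in a library were not whole.

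Rounded counts entered edgeR 4.0.16 in R 4.3.3 (quasi-likelihood test, TMM scaling, filterByExpr minimum of 10 counts), with 6 libraries for a contrast within a cell line and all 12 for contrasts between lines. Benjamini-Hochberg adjustment ran over all genes tested. Levels are TPM, mean ± SD; log2 fold changes carry the SE of the fit. Chain shares were compared with two-sided exact permutation tests. The fit was tested on simulated counts. Intervals of depth cover counting error only. The members and lists were chosen with earlier results of these data known. Genes named are the 9 members, DCBLD2 and, per list and cell line, up to 2 called genes in each direction with the smallest p and at least 1 TPM in the higher group, of which some are not reported here, and the 5 and 3 nearest profiles of SPP1 and CD44 among genes reaching 5 TPM in 1 group.

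Alternatives were DESeq2 1.42.0, its size factors in edgeR, limma 3.58.1 on log2(TPM + 1) and log2(TPM + 0.1), other filters, robust spread, a replicate block, all 12 libraries in 1 fit, the common spread of H1299 in THP-1, each library left out, and, added after seeing the data, the implied length as an offset. Sequences were matched by symbol; positions are GRCh38 with GENCODE 29, in which 98.9% of gene identifiers were found.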

Additional observations from a re-analysis of the deposited data

Results flagged for a closer look

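For 5 of the 9 members the change in THP-1 differed from that in H1299 by the test of the difference itself (edgeR, THP-1 change minus H1299 change, log2 scale): SPP1 at -0.84, ITGA5 at -0.84, ITGB3 at -0.62, ITGB1 at -0.46 and ITGA4 at 1.23. The same test called 38.7% of 14244 genes. In it, cell line and kind of comparison (own genotype label or exposure to H1299) cannot be told apart. Within a line, SPP1 rose in both, more so in H1299; ITGB1 likewise. ITGA5 had a log2 fold change of -0.54 in THP-1 and an uncalled 0.29 in H1299, ITGB3 had -0.86 and an uncalled -0.26, and ITGA4 had 1.44 and an uncalled 0.20. The ITGB1 difference lost its call in 10 of 12 fits with 1 library left out, with values of -0.56 to -0.26 and adjusted p between 0.000833 and 0.129 over the 12; it was kept without H1299 labelled control replicate 1 and without H1299 labelled DCBLD2 replicate 3.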

How the results depend on the processing

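Of 848 alternative values of single genes, 787 kept direction and side of the threshold, and of 96 counts of members called, 90 stayed within 1.5 times. The number of members called in H1299 was 3, against 5 with all 12 libraries in 1 fit and 1 to 3 with 1 library left out (1 without replicate 3 of labelled control or without any replicate of labelled DCBLD2). Over all genes, 20.9% were called in H1299, against 35.5% with all 12 libraries and 3.98 to 24.5% with 1 library left out. The number of members called in THP-1 was 8, against 3 (ITGA4, ITGA5 and ITGB3) with the common spread of H1299, under which SPP1 stayed at 0.15 (adjusted p = 0.490). Of all genes tested in THP-1, 34.5% were called with that spread. CD44 in H1299 turned to 0.0598 on log2(TPM + 1), 0.0599 on log2(TPM + 0.1) and 0.0503 with the implied length as an offset. The ITGAV difference between lines turned to -0.10 and -0.12 with the same pseudocounts and -0.0444 with the length offset, and that of ITGB5 to -0.21, -0.21 and -0.17. ITGB1 between the labelled DCBLD2 groups turned to -0.18 with both pseudocounts. With 1 library left out, uncalled values ranged from -0.25 to 0.18 for ITGA9 in THP-1, and for the differences between lines from -0.0662 to 0.0623 for CD44, -0.18 to 0.22 for ITGAV and -0.0278 to 0.16 for ITGB5. The cause was not tested.

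Same-numbered libraries did not deviate together in H1299 (correlations -0.117, -0.283 and -0.273) or above 0.1 in THP-1 (0.0297 to 0.0568), and the main fit used no pairing. These correlations cannot show whether such libraries were handled together. With the replicate number as a block, 2 members were called in H1299 (CD44 at adjusted p = 0.165) and 8 in THP-1, and the ITGAV difference between lines was -0.0057. With that block, 14.1% of all genes tested were called in H1299 and 68.5% in THP-1. Genes called in H1299 numbered 2669, but 5056 in 1 fit of 12 libraries, 1374 without labelled DCBLD2 replicate 1, 514 without replicate 2 of that group, and 1649 without labelled control replicate 3; in THP-1 they numbered 8941, and 4531 with the common spread of H1299. SPP1 in H1299 rests on 73 to 153 reads a library, and ITGA9 there on 0 to 4, too few to show a difference.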

Other observations

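DCBLD2 shared with CD44 a shorter implied transcript length in H1299 labelled DCBLD2, at 1.73 against 2.08 in labelled control relative to the median gene of a library, a log2 difference of -0.26 that 2.08% of 9838 genes matched or passed. In THP-1, DCBLD2 averaged 6.47 ± 0.175 TPM in labelled DCBLD2 and 11.9 ± 0.406 TPM in labelled control (SD, n = 3 each), and its log2 fold change was -0.81.

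Of the 12 carcinoma markers in THP-1, the mean TPM of 5 was higher and of 5 lower in labelled DCBLD2, and 2 were at 0 in both groups. KRT8 and KRT18, too scarce to test, averaged 0.524 and 1.01 TPM in labelled DCBLD2, against 0.283 and 0.204 TPM in labelled control. AXL averaged 8.87 TPM in labelled DCBLD2 and 26.7 TPM in labelled control (adjusted p = 3.08e-19, edgeR), and CAV1 109.9 and 146 TPM (4.21e-11). In H1299, CD68, a lysosomal glycoprotein gene used as a macrophage marker, averaged 198 TPM in labelled DCBLD2 and 136 TPM in labelled control, where it made up most of the summed level of the myeloid markers.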
